A study of Mus musculus with 12 samples.

Results

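The genes described here encode proteins of the red cell membrane and the 2 carbonic anhydrases that red cells carry in quantity. They are Slc4a1, Ank1, Epb42, Rhag, Rhd, Kel, Ermap, Tspo2, Car1 and Car2. All 10 genes were found on the array through the gene symbol of its probes, which makes 10 of the 19057 genes with a named probe and 15 of the 45281 probes measured. For each gene the probe with the highest mean over all 12 mice was used.

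Red cells are made from nucleated erythroblasts, which in adult mice mature in the bone marrow and also in the red pulp of the spleen. As erythroblasts mature they assemble a membrane skeleton of spectrin and actin, which is held to the lipid bilayer by ankyrin bound to the anion exchanger band 3, a contact that the Epb42 protein stabilises and the Rh proteins join. Carbonic anhydrases convert carbon dioxide and water into bicarbonate, which band 3 then exchanges for chloride, so that both protein families work together in carrying carbon dioxide in the blood.

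Gene expression was measured in whole spleen RNA from male C57BL/6J mice, 1 Illumina BeadChip array per mouse and 4 mice per diet. HFD-ED fed mice received a high fat diet with a concentrate of the n-3 fatty acids EPA and DHA (15 g fat per 100 g, of which 10 g coconut oil, 3 g corn oil and 2 g EPA/DHA oil, with 1 g cholesterol). HFD-CO fed mice received the same amount of fat with corn oil in place of the concentrate (10 g coconut oil and 5 g corn oil, with 1 g cholesterol). Control mice received a low fat diet (5 g fat per 100 g, of which 2.5 g coconut oil and 2.5 g corn oil). The mice were 6 weeks old at purchase, had 3 weeks of acclimatization and were fed their diet for 8 weeks. According to the study's methods, the animals put on the arrays were picked within each diet by body weight and plasma lipids, so they are not a random draw. One protocol text names skeletal muscle, whereas the tissue label and the titles name spleen. The array values fit the spleen label, since Cd79b of B cells averaged 12.72 and Vcam1 of red pulp macrophages 12.76 over the 12 mice on the deposited log2 scale. This scale runs between 6.95 and 14.79 with a median of 7.14, and 75.2% of probes had a mean under 7.5, close to its lower end. Arrays of the same diet correlated with each other at r between 0.971 and 0.995 over all probes, and no pair of arrays held identical values.

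The 10 genes had higher means in HFD-ED fed mice than in control mice in 10 of 10 cases and higher than in HFD-CO fed mice in 9 of 10, but none passed the test. Over all probes, 47.2% had a higher mean in HFD-ED than in control mice and 47.6% a higher mean in HFD-ED than in HFD-CO mice. The median fitted difference of the 10 genes was 1.09 log2 units between HFD-ED and control and 1.24 between HFD-ED and HFD-CO, beside medians of -0.002 and -0.002 over all probes. With limma and Benjamini-Hochberg adjustment over all 45281 probes, 0 of the 10 genes had an adjusted p below 0.05 for HFD-ED against control (0% of all probes did), with adjusted p of 0.380 to 0.882. The count was again 0 of 10 for HFD-ED against HFD-CO (0.00221% of all probes, which is 1 probe), and adjusted p ran from 0.478 to 0.951. Before adjustment, 5 of 10 genes had p under 0.05 with a higher mean in HFD-ED than in control mice (4.54% of all probes) and 8 of 10 with a higher mean in HFD-ED than in HFD-CO mice (4.6% of all probes). The control mice serve in both comparisons with control, and the HFD-ED mice in both comparisons with HFD-ED, so these counts are not independent of each other. The genes within a count are not separate observations either. The 8 genes with a mean of 7.5 or more varied together from mouse to mouse, with a median pairwise Pearson's r of 0.953. Rhd followed them at r of 0.838 to 0.941. Epb42 did not, and its HFD-ED minus control difference was only 0.01. The counts of higher means and of unadjusted p thus largely repeat a shared pattern. In whole spleen, more red cell precursors and more RNA of the 10 genes per cell cannot be told apart.

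The mice of each diet differed widely from one another. Among the HFD-ED fed mice, replicates 2, 3 and 4 were above every control mouse in 8 of the 10 genes, whereas replicate 1 lay within the range of the control mice in these 8 genes. At least 3 of 4 HFD-ED mice above every control mouse was found for 9.58% of all probes. Against HFD-CO, at least 3 of 4 HFD-ED mice were above every HFD-CO mouse in 9 of the 10 genes (9.22% of all probes). No gene of the 10 had all 4 HFD-ED mice above all 4 control mice, which 1.82% of probes did, or below them, which 2.85% did. Set against the HFD-CO mice, again none of the 10 was free of overlap, beside 1.73% of probes with every HFD-ED mouse above and 2.24% with every HFD-ED mouse below.

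**Figure D1:**
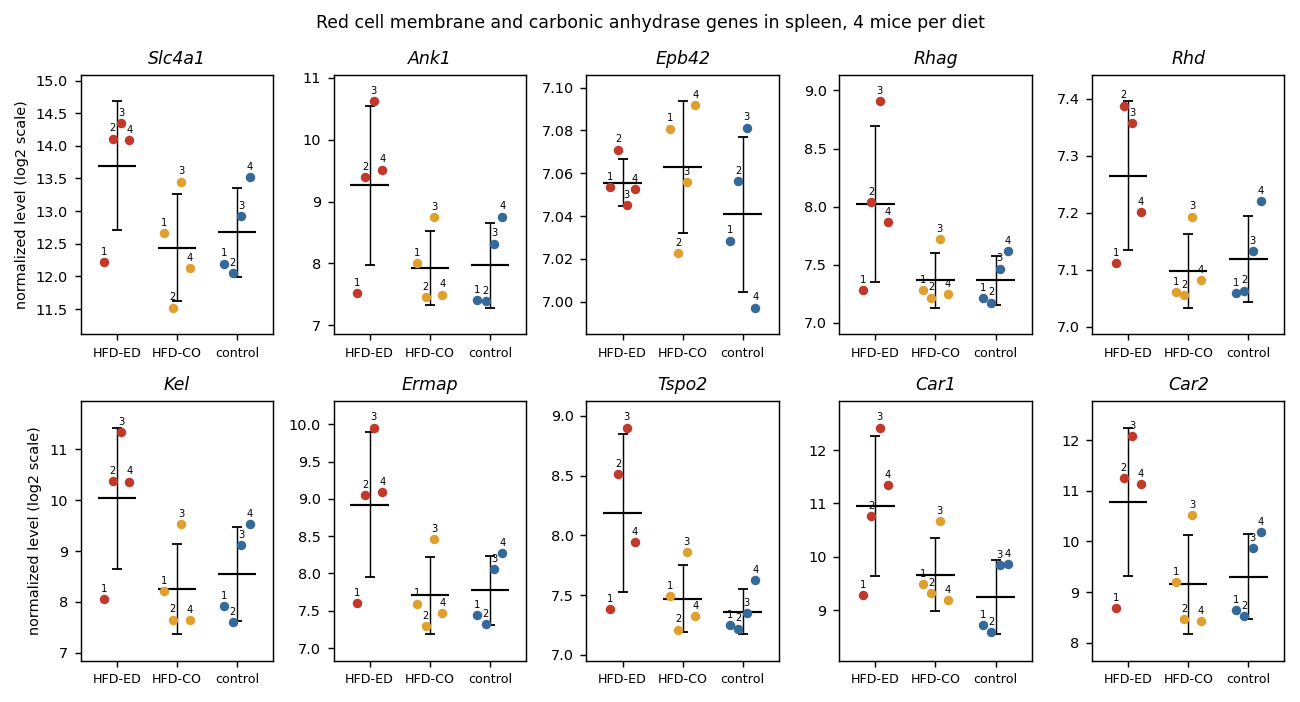
Normalized level (log2 scale) of each of the 10 genes in each mouse, by diet. Points are single mice numbered by replicate, horizontal lines are diet means and error bars are the SD of 4 mice. In 8 genes HFD-ED replicates 2, 3 and 4 stand above every control mouse and replicate 1 does not.

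Slc4a1 encodes band 3, the chloride and bicarbonate exchanger that is the most abundant integral protein of the red cell membrane. Its level was 12.22, 14.11, 14.35 and 14.09 in HFD-ED replicates 1 to 4, 12.66, 11.52, 13.45 and 12.13 in HFD-CO replicates 1 to 4 and 12.20, 12.06, 12.92 and 13.52 in control replicates 1 to 4. HFD-ED replicates 2, 3 and 4 thus stood together above all other mice, near the upper end of the scale, and HFD-ED replicate 1 stood level with the lower control mice. The mean was 13.69 ± 0.99 in HFD-ED, 12.44 ± 0.82 in HFD-CO and 12.67 ± 0.68 in control mice (SD, n = 4 each). The HFD-ED mean was 1.02 log2 units above control (SE 0.54, limma adjusted p = 0.565), or 2.03-fold, and 1.25 units above HFD-CO (adjusted p = 0.523), or 2.38-fold.

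Ank1 encodes ankyrin-1, which ties band 3 to spectrin. Its level was 7.53, 9.40, 10.62 and 9.52 in HFD-ED replicates 1 to 4, 8.0, 7.46, 8.75 and 7.5 in HFD-CO replicates and 7.41, 7.39, 8.32 and 8.76 in control replicates. The same 3 HFD-ED mice were again above all others, while HFD-CO replicate 3 and control replicate 4 had nearly the same level as each other. The mean difference between HFD-ED and control was 1.30 (SE 0.59, limma adjusted p = 0.491), or 2.46-fold, and between HFD-ED and HFD-CO 1.34 (adjusted p = 0.525), or 2.53-fold. A second Ank1 probe stayed between 7.03 and 7.48 in all mice and differed by 0.12 between HFD-ED and control. Averaging both probes took the HFD-ED minus control difference of Ank1 to 0.71.

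Epb42 encodes a fatty-acylated skeleton protein that binds band 3 and ankyrin from the inside of the cell. Its single probe lay between 7.05 and 7.07 in HFD-ED, between 7.02 and 7.09 in HFD-CO and between 7.0 and 7.08 in control mice, at the lower end of the scale. The diets overlapped fully, and the fitted differences were 0.01 between HFD-ED and control (95% interval -0.03 to 0.06, limma adjusted p = 0.882) and -0.01 between HFD-ED and HFD-CO (-0.05 to 0.04, adjusted p = 0.951). This probe thus followed none of the other 9 genes, and whether it detects Epb42 RNA in spleen was not tested.

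Rhag, the Rh-associated glycoprotein, is a gas and ammonium channel that Rh proteins need to reach the cell surface. Its level was 7.28, 8.04, 8.91 and 7.87 in HFD-ED replicates 1 to 4, 7.28, 7.22, 7.72 and 7.24 in HFD-CO replicates and 7.21, 7.17, 7.47 and 7.62 in control replicates. HFD-ED replicate 3 alone was more than 0.8 log2 units above every other mouse. The fitted difference was 0.66 between HFD-ED and control (SE 0.28, limma adjusted p = 0.457), or 1.58-fold, and 0.66 between HFD-ED and HFD-CO (adjusted p = 0.515), or 1.58-fold. Without HFD-ED replicate 3 these became 0.36 and 0.36. The other 2 Rhag probes had HFD-ED minus control differences of 0.57 and 0.56 and HFD-ED minus HFD-CO differences of 0.54 and 0.56, and both were highest in HFD-ED replicate 3.

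Rhd encodes the Rh protein itself, the partner of Rhag in the membrane. Its values were 7.11, 7.39, 7.36 and 7.20 in HFD-ED replicates 1 to 4, 7.06, 7.06, 7.19 and 7.08 in HFD-CO replicates and 7.06, 7.06, 7.13 and 7.22 in control replicates. The whole range was thus 0.33 log2 units near the lower end of the scale, yet replicates 2 and 3 of HFD-ED were again the highest. The mean difference was 0.15 between HFD-ED and control (SE 0.06, limma adjusted p = 0.460) and 0.17 between HFD-ED and HFD-CO (adjusted p = 0.481), or 1.11-fold and 1.12-fold.

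Kel encodes a zinc endopeptidase of the red cell surface that carries the Kell blood group antigens in humans. It stood at 8.06, 10.37, 11.34 and 10.37 in HFD-ED replicates 1 to 4, at 8.21, 7.65, 9.53 and 7.64 in HFD-CO replicates and at 7.92, 7.60, 9.12 and 9.53 in control replicates. Every diet held both low and high mice in this gene, and the control mice alone differed by 1.93 log2 units or 3.81-fold. The mean was 10.04 ± 1.39 in HFD-ED, 8.26 ± 0.89 in HFD-CO and 8.55 ± 0.93 in control mice (SD, n = 4 each). Fitted differences were 1.49 between HFD-ED and control (SE 0.71, limma adjusted p = 0.511), or 2.81-fold, and 1.78 between HFD-ED and HFD-CO (adjusted p = 0.499), or 3.43-fold, which was the widest HFD-ED against HFD-CO difference of the 10 genes.

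Ermap is an adhesion or receptor-like protein of erythroid cells with an immunoglobulin domain, which carries the Scianna blood group in humans. Levels were 7.60, 9.05, 9.95 and 9.09 in HFD-ED replicates 1 to 4, 7.59, 7.30, 8.46 and 7.47 in HFD-CO replicates and 7.44, 7.32, 8.06 and 8.27 in control replicates. HFD-ED replicates 2, 3 and 4 were the highest mice and HFD-ED replicate 1 had nearly the value of HFD-CO replicate 1. The difference was 1.15 between HFD-ED and control (SE 0.45, limma adjusted p = 0.425), or 2.22-fold, and 1.22 between HFD-ED and HFD-CO (adjusted p = 0.478), or 2.33-fold. A second Ermap probe lay between 7.05 and 7.21 throughout and differed by 0.02 between HFD-ED and control, so that the mean of both probes gave 0.59.

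Tspo2 is a relative of the mitochondrial translocator protein that is made in erythroid cells and takes part in moving cholesterol as they mature. Levels were 7.38, 8.51, 8.90 and 7.95 in HFD-ED replicates 1 to 4, 7.49, 7.21, 7.86 and 7.32 in HFD-CO replicates and 7.25, 7.22, 7.35 and 7.63 in control replicates. HFD-ED replicate 4 was here only slightly above HFD-CO replicate 3. The difference was 0.82 between HFD-ED and control (SE 0.28), or 1.77-fold, with the lowest adjusted p of the 10 genes in that comparison (limma adjusted p = 0.380). Its HFD-ED minus HFD-CO difference was 0.71 (adjusted p = 0.490), or 1.64-fold.

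Promoter sequences are shown for Kel, Rhd, Ermap and Rhag, the membrane protein genes whose levels varied together across mice and that hold a match to one of the erythroid motifs searched inside the stretch printed. They were taken from RefSeq on build GRCm38.p6, where 6 of the 10 genes had a promoter entry (Epb42, Rhd, Kel, Rhag, Ermap and Tspo2). Each runs 5′ to 3′ on the strand of its gene and ends upstream of the annotated gene. Capitals mark AGATAA, one form of the sequence bound by GATA factors, and CACCC, a core of the sites of Klf1 and related factors. Both were searched on either strand (TTATCT and GGGTG when read on the other strand). Other forms of these sites were not searched and are unmarked. They lie at chr6:41704335-41704575 (minus strand) for Kel, chr4:134864286-134864535 (plus strand) for Rhd, chr4:119190014-119190245 (minus strand) for Ermap and chr17:40810899-40811098 (plus strand) for Rhag.
Kel: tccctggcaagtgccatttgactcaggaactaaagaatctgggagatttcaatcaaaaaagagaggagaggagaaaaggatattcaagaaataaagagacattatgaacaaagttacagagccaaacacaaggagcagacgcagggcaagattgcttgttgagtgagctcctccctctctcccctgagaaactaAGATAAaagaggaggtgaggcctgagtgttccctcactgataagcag
Rhd: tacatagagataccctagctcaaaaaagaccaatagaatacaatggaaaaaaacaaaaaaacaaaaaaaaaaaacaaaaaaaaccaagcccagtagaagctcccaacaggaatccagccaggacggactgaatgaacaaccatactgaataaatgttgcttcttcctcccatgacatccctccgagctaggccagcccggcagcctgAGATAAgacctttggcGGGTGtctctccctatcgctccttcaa
Ermap: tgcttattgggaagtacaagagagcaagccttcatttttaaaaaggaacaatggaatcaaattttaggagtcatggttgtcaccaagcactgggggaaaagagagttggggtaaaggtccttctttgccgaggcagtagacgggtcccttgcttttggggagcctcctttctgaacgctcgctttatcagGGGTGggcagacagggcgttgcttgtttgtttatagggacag
Rhag: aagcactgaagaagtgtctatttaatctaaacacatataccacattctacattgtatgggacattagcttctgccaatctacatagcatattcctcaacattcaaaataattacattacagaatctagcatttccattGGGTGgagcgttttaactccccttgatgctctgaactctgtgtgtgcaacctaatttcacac
Positions are counted from the start site of the promoter entry. In Kel, Ermap and Rhag this site lies inside the annotated gene, beyond the end of the stretch shown. In the 250 bases before the start site, AGATAA was present in 3 of these 6 genes (Epb42, Rhd and Kel) and in 10.3% of 27025 mouse promoter entries. CACCC was present in 5 of 6 (Ermap, Rhd, Kel, Rhag and Tspo2) and in 51.3% of the entries, and both were present in 2 of 6 (Rhd and Kel) and in 4.41% of the entries. In Rhd the matches lay 38 to 43 bases (AGATAA) and 23 to 27 bases (CACCC) upstream of the start. In Kel, AGATAA lay 51 to 56 bases upstream, and the CACCC match, 1 to 5 bases upstream, is outside the stretch shown. The single match to the 2 motifs searched, CACCC, was 56 to 60 bases upstream of that start in Ermap and 108 to 112 bases upstream in Rhag. A match is a description of the letters and no evidence of binding.

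Car1 encodes carbonic anhydrase 1, a cytosolic enzyme abundant in red cells. Levels were 9.28, 10.76, 12.42 and 11.34 in HFD-ED replicates 1 to 4, 9.49, 9.32, 10.66 and 9.19 in HFD-CO replicates and 8.71, 8.59, 9.84 and 9.87 in control replicates. HFD-ED replicate 3 was far above the rest, HFD-ED replicate 2 was barely above HFD-CO replicate 3, and the lowest values of all belonged to control replicates 1 and 2. The mean was 10.95 ± 1.31 in HFD-ED, 9.67 ± 0.68 in HFD-CO and 9.25 ± 0.70 in control mice (SD, n = 4 each). The HFD-ED minus control difference of 1.70 (SE 0.61, 95% interval 0.35 to 3.04, limma adjusted p = 0.400), or 3.24-fold, was the widest of the 10 genes in that comparison, and the HFD-ED minus HFD-CO difference was 1.28 (adjusted p = 0.563), or 2.44-fold.

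Car2 encodes carbonic anhydrase 2, a fast cytosolic isoform found in red cells and in several other tissues. Levels were 8.69, 11.25, 12.08 and 11.13 in HFD-ED replicates 1 to 4, 9.19, 8.46, 10.52 and 8.43 in HFD-CO replicates and 8.65, 8.52, 9.87 and 10.19 in control replicates. HFD-ED replicates 2, 3 and 4 exceeded all other mice, followed by HFD-CO replicate 3 and control replicates 4 and 3. The difference was 1.48 between HFD-ED and control (SE 0.73, limma adjusted p = 0.529), or 2.79-fold, and 1.64 between HFD-ED and HFD-CO (adjusted p = 0.532), or 3.11-fold. A second Car2 probe lay between 7.06 and 7.32 and differed by 0.09 in each of these comparisons, and the mean of both probes gave 0.78 between HFD-ED and control.

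**Figure D2:**
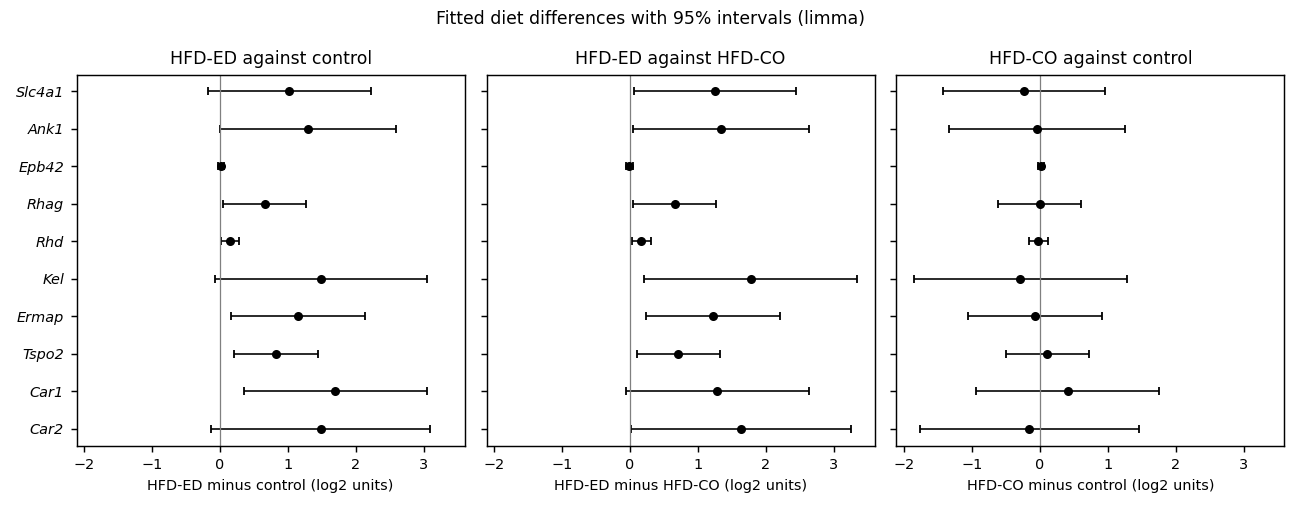
Fitted difference between diets for each of the 10 genes (log2 units, first diet minus second), with 95% intervals from limma, for HFD-ED against control, HFD-ED against HFD-CO and HFD-CO against control. Points lie right of 0 for all 10 genes against control and for 9 against HFD-CO, and close to 0 between HFD-CO and control, with intervals that are wide in all panels.

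Between HFD-CO and control, 3 of the 10 genes had a higher mean in HFD-CO and 7 a lower one, while 49.2% of all probes had a higher mean in HFD-CO. None passed the test (0 of 10, and 0% of all probes by limma), none had an unadjusted p under 0.05 with a higher mean in HFD-CO (2.14% of all probes did) or with a lower one, and the median difference was -0.03. At least 3 of 4 HFD-CO mice above every control mouse was seen in 0 of 10 genes (7.27% of all probes). The 2 diets overlapped in all 10 genes, where 1.44% of probes had every HFD-CO mouse above and 1.57% every HFD-CO mouse below the control mice. The HFD-CO minus control differences were 0.41 for Car1, 0.11 for Tspo2, 0.02 for Epb42, -0.002 for Rhag, -0.02 for Rhd, -0.04 for Ank1, -0.07 for Ermap, -0.16 for Car2, -0.23 for Slc4a1 and -0.29 for Kel. Apart from those of Epb42 and Rhd, their intervals were wide, for example -1.43 to 0.97 for Slc4a1 and -0.93 to 1.76 for Car1. A difference of either sign was within the interval of all 10 genes. The sign of 8 of these 10 differences changed when single mice were left out, and those of Epb42 and Car1 kept it. The Car1 difference was 0.0806 without HFD-CO replicate 3 and 0.62 without control replicate 4.

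The distance between Car1 and Car2 varied from mouse to mouse. The Car1 value minus the Car2 value was 0.59, -0.49, 0.34 and 0.21 in HFD-ED replicates 1 to 4, 0.30, 0.86, 0.14 and 0.76 in HFD-CO replicates and 0.07, 0.06, -0.03 and -0.32 in control replicates. Every HFD-CO mouse was thus above every control mouse, while the HFD-ED mice spanned both. The mean was 0.16 ± 0.46 in HFD-ED, 0.51 ± 0.35 in HFD-CO and -0.05 ± 0.18 in control mice (SD, n = 4 each). This contrast was chosen after its values were seen and was not tested, and since the probes differ in brightness per RNA, its size says nothing of which enzyme had more RNA.

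The genes varied together from mouse to mouse. Ordered by the mean deviation of the 10 genes from their 12-mouse means, HFD-ED replicate 3 came first at 1.54 log2 units, followed by HFD-ED replicates 2 and 4 at 0.84 and 0.80. HFD-CO replicate 3 was next at 0.36 and control replicate 4 at 0.20, control replicate 3 stood at -0.04 and HFD-CO replicate 1 at -0.35. HFD-ED replicate 1 stood at -0.54, between HFD-CO replicate 1 and HFD-CO replicate 4 (-0.65), and the lowest were control replicate 1 at -0.67, HFD-CO replicate 2 at -0.74 and control replicate 2 at -0.76. Each diet thus held both low and high mice. In the 8 genes with a mean of 7.5 or more, which leaves out Epb42 and Rhd, HFD-ED replicate 3 was the highest mouse 8 of 8 times and HFD-ED replicates 2, 3 and 4 were the top 3 mice 8 of 8 times.

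**Figure D3:**
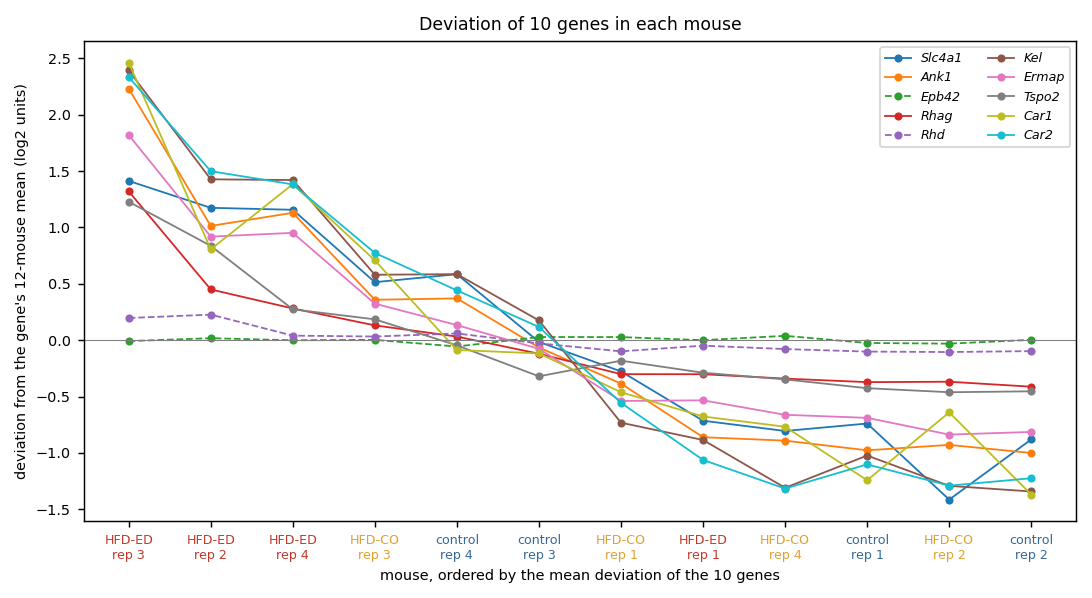
Deviation of each of the 10 genes from its own 12-mouse mean (log2 units) in each mouse, with mice ordered by the mean deviation of the 10 genes and mouse names coloured by diet. The lines of 8 genes fall side by side across HFD-ED, HFD-CO and control mice, Rhd (dashed) follows with a small range, and Epb42 (dashed) stays near 0.

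Across the 12 mice, Pearson's r over the 28 pairs of these 8 genes was 0.863 to 0.996 with a median of 0.953, and Spearman's rho was 0.895 to 0.986. The highest r was between Kel and Car2 (0.996) and the lowest between Slc4a1 and Rhag (0.863, rho 0.958). After each gene was centred within its diet, r was 0.789 to 0.996, and without the 2 mice farthest from the median, HFD-ED replicates 2 and 3, it was 0.868 to 0.992. Rhd correlated with the 8 genes at 0.838 to 0.941 despite its small range, and Epb42 with the other 9 at -0.081 to 0.023. All points of a pair share the same RNA, array and normalization, so these values describe the 12 arrays. The genes differed in how far they moved: per log2 unit of the mean of the 8 genes, Kel moved by 1.37, Car2 by 1.36, Car1 by 1.19, Ank1 by 1.12, Slc4a1 by 0.98, Ermap by 0.91, Tspo2 by 0.55, Rhag by 0.52, Rhd by 0.11 and Epb42 by -0.001.

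The spread between mice was among the widest on the array for most of the 10 genes but not for Rhd and Epb42. Over 12 mice the highest and lowest mouse differed 14.2-fold in Car1, 13.3-fold in Kel, 12.6-fold in Car2, 9.40-fold in Ank1, 7.10-fold in Slc4a1, 6.31-fold in Ermap, 3.33-fold in Rhag and 3.23-fold in Tspo2. By the SD over 12 mice, Kel was in the top 0.126% of the 19057 genes, Car2 in the top 0.131%, Car1 in the top 0.184%, Ank1 in the top 0.231%, Slc4a1 in the top 0.278% and Ermap in the top 0.346%, followed by Tspo2 (0.955%), Rhag (1.08%), Rhd (24.8%) and Epb42 (80.0%). By the SD over the 4 control mice alone, Kel was in the top 0.021%, Car2 in the top 0.063%, Car1 in the top 0.115%, Ank1 in the top 0.121%, Slc4a1 in the top 0.126% and Ermap in the top 0.425%, while Rhag (3.53%), Tspo2 (5.03%), Rhd (27.5%) and Epb42 (53.8%) stood lower. A large part of the spread lay between mice on the same diet. Differences between the diet means made up 36.0% to 49.1% of the variation of the 8 brighter genes, beside a median of 18.6% over all genes. With 3 diets of 4 mice such a share is above 0 even where diet has no effect, and these shares were not tested.

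Other genes of the red cell membrane were examined as a list, of which 29 of 34 had a named probe, and 9 of the 29 had a mean under 7.5. The list was chosen with earlier results of these data known. Between HFD-ED and control, 21 of 29 had a higher mean in HFD-ED (47.2% of all probes), and none passed the test (limma, smallest adjusted p = 0.252). An unadjusted p under 0.05 was found for 15 with a higher mean (4.54% of all probes) and 0 with a lower one, and the median difference was 0.39. Set against HFD-CO, 22 of 29 had a higher mean in HFD-ED (47.6% of all probes), and none passed (limma, smallest adjusted p = 0.403). Here 16 had an unadjusted p under 0.05 with a higher mean (4.6% of all probes) and 1 with a lower one, and the median was 0.35. Between HFD-CO and control the median was 0.01, with 16 higher and 13 lower and 1 unadjusted p under 0.05 in each direction. The genes of this list with the smallest p between HFD-ED and control were Xk, the membrane partner of Kel, with 7.46 ± 0.12 in HFD-ED and 7.24 ± 0.02 in control mice (SD, n = 4 each, limma adjusted p = 0.252), and Add1, the skeleton protein alpha-adducin, with 10.47 ± 0.22 in HFD-ED and 10.15 ± 0.06 in control mice (adjusted p = 0.317). The urea transporter Slc14a1 (difference 0.60, limma adjusted p = 0.342) and the porphyrin transporter Abcb6 (0.51, adjusted p = 0.389) followed. Xk had a mean of 7.34 over the 12 mice, close to the lower end of the scale. Between HFD-ED and HFD-CO the smallest p belonged to Add3, the broadly expressed gamma-adducin, whose mean was lower in HFD-ED than in HFD-CO (-0.23, limma adjusted p = 0.403), with Xk (0.17), Add1 (0.28) and the glycophorin gene Gypc (0.93) after it.

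Chosen after their values were seen, the genes of this list with the widest ranges over 12 mice were Sptb, the beta-spectrin of the red cell skeleton, at 3.83 log2 units, Dmtn, the actin-bundling protein dematin, at 3.58, and the water channel Aqp1 at 3.0. Kel and Car2 had ranges of 3.74 and 3.65, close to those of Sptb and Dmtn. The 29 genes differed widely in this, and the lowest range was 0.05, in Atp2b4.

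Apart from Car1 and Car2, 13 of 14 carbonic anhydrase genes listed had a named probe, and 12 of the 13 had a mean under 7.5. Between HFD-ED and control, 5 had a higher and 8 a lower mean, none passed the test (limma, smallest adjusted p = 0.323), and the median difference was -0.01. Over HFD-CO, 9 were higher in HFD-ED and 4 lower with a median of 0.01. The only one with a mean of 7.5 or more was the cytosolic isoform Car13, at 7.61 ± 0.11 in HFD-ED and 7.51 ± 0.13 in control mice (SD, n = 4 each), a difference of 0.10 (adjusted p = 0.700). Car3, best known from muscle and fat, averaged 7.49 ± 0.19 in HFD-ED, 7.71 ± 0.20 in HFD-CO and 7.29 ± 0.16 in control mice, and its HFD-CO minus control difference of 0.41 had the smallest p of the list in that comparison (unadjusted p = 0.005, limma adjusted p = 1.0). In GRCm38.p6 the protein-coding genes Car13, Car1, Car3 and Car2 follow each other in this order on 1 chromosome, with pseudogenes and a long non-coding RNA gene among them, yet Car1 had a range of 3.83 and Car2 of 3.65 log2 units over 12 mice, against 0.39 for Car13 and 0.89 for Car3.

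**Figure D4:**
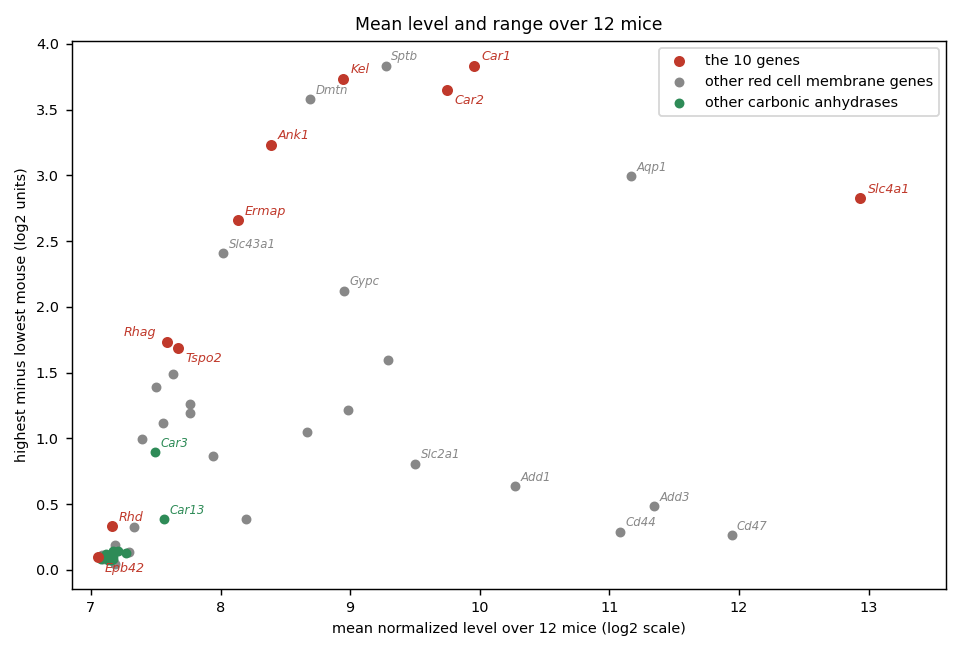
Range over 12 mice (highest minus lowest, log2 units) against mean normalized level (log2 scale) for the 10 genes, for 29 other red cell membrane genes and for 13 other carbonic anhydrases. Car1, Car2, Kel and Ank1 have ranges above 3 log2 units together with Sptb and Dmtn, while all other carbonic anhydrases stay below 1.

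Genes whose levels most resembled the mean of the 10 genes over the 12 mice were sought among 7006 other genes with a mean of 7.5 or more. The 6 closest by Pearson's r were Hemgn (0.995), Icam4 (0.995), Tal1 (0.995), Pheta2 (0.994), Slc6a9 (0.994) and Klf1 (0.993), with Spearman's rho between 0.965 and 0.993. Hemgn is hemogen, a nuclear protein of blood cell precursors, Icam4 is a red cell adhesion protein, Slc6a9 is a glycine transporter, and Tal1 and Klf1 are transcription factors of the red cell lineage. Without HFD-ED replicates 2 and 3 their r was 0.989 to 0.993. Klf1 lay between 8.12 and 11.47 in HFD-ED, between 7.92 and 9.90 in HFD-CO and between 7.94 and 9.71 in control mice. The genes most like Car2 alone were Klf1 (0.996), Sptb (0.993) and Hemgn (0.993). In all, 185 of the 7006 genes had r above 0.95 with the mean of the 10 genes, 362 had r above 0.9 and 19 had r below -0.9, so the pattern was shared by many genes on these 12 arrays.

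Markers of several cell types differed between mice along with these genes. The red cell precursor list (5 of 7 genes measured, Alas2, Epor, Gata1, Hba-a1 and Klf1) had mean deviations from its 12-mouse mean of -0.43 to 0.93 log2 units in HFD-ED, -0.53 to 0.29 in HFD-CO and -0.40 to 0.12 in control mice, with the lowest HFD-ED value in replicate 1. Within it the HFD-ED minus control difference was 1.51 for Klf1, 0.61 for Epor, 0.53 for the heme synthesis gene Alas2 and 0.22 for Gata1. It was 0.10 for the alpha-globin gene Hba-a1, whose mean of 14.48 was close to the top of the scale. All 6 of 6 neutrophil markers were higher in mean in HFD-ED, by a median of 0.86 over control and 1.37 over HFD-CO, and their mean deviation spanned -0.29 to 1.93 in HFD-ED, -0.88 to -0.32 in HFD-CO and -0.75 to 0.40 in control mice. HFD-ED replicate 3 was the highest mouse in this list too, and HFD-ED replicate 1 the lowest of its diet. S100a8, the brightest marker of that list, averaged 13.44 in HFD-ED and 12.78 in control mice.

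The 4 megakaryocyte markers, of which Pf4 was the brightest, were also all higher in mean in HFD-ED, by a median of 0.49 over control and 0.61 over HFD-CO. Their mean deviation was 0.02 to 0.67 in HFD-ED, -0.35 to -0.17 in HFD-CO and -0.20 to -0.04 in control mice, so all 4 HFD-ED mice, replicate 1 included, were above the other 8. Of single probes, 1.82% had every HFD-ED mouse above every control mouse and 1.73% had every HFD-ED mouse above every HFD-CO mouse. How often a mean of 4 genes separates in this way was not examined. T-cell markers (4 of 4 measured) had a median difference of -0.16 between HFD-ED and control, with 3 of 4 lower, and B-cell markers (2 of 4 measured) of -0.23 with both lower. Red pulp macrophage markers (4 of 4) had a median of -0.12 with 1 of 4 higher, and NK-cell markers (3 of 3) of -0.07 with 1 of 3 higher. No marker gene passed the test in any comparison. The pancreatic acinar markers stood 5.24 log2 units above their 12-mouse mean in HFD-CO replicate 4 and 1.62 above it in HFD-CO replicate 1, and adipocyte markers (2 of 3 measured) stayed within -0.37 and 0.32. Without HFD-CO replicate 4 the median HFD-ED minus HFD-CO difference of the 10 genes was 1.13. The part of these other cell types in the levels of the 10 genes was not tested.

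**Figure D5:**
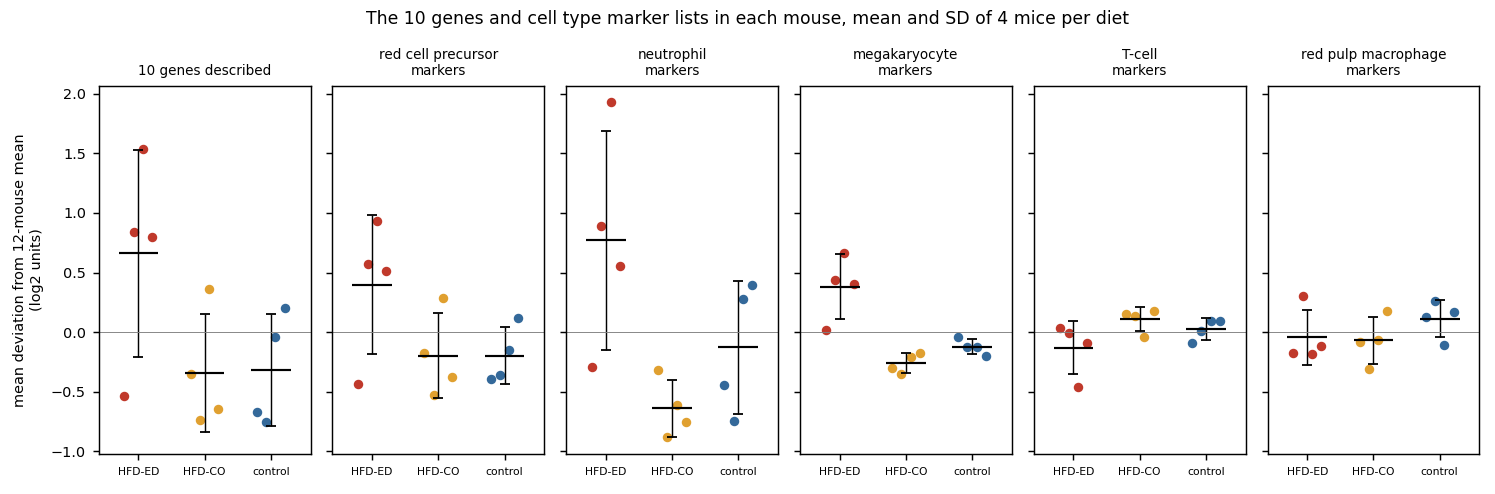
Mean deviation from the 12-mouse mean (log2 units) of the 10 genes and of 5 marker lists in each mouse, by diet. Points are mice, lines are diet means and error bars are the SD of 4 mice. HFD-ED replicate 1 is the lowest HFD-ED point for the 10 genes at -0.54, for red cell precursor markers at -0.43 and for neutrophil markers at -0.29, and only for megakaryocyte markers do all HFD-ED mice lie above all others.

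The size of the HFD-ED differences depended on single mice. With HFD-ED replicate 1 left out, the median difference of the 10 genes came to 1.55 against control and to 1.70 against HFD-CO, and without HFD-ED replicate 3 it was 0.80 and 0.83. Where the mean of all probes of a gene took the place of the brightest probe, it was 0.74 against control and 0.72 against HFD-CO. No gene passed the test in any of these fits. The lowest adjusted p was 0.064 for Tspo2 between HFD-ED and control and 0.080 for Ermap between HFD-ED and HFD-CO, both by limma without HFD-ED replicate 1. With 4 mice per diet and this spread, differences of 1.30 log2 units with an SE of 0.59, as in Ank1, were not separated from 0 after adjustment.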

How the data were processed

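RNA from the spleens of 12 mice was hybridised to Illumina MouseWG-6 arrays, 1 array per mouse and 4 mice per diet. The deposited values are on a log2 scale: the authors applied the variance-stabilising transform and quantile normalization of lumi 2.18.0, and detection p-values were not used here. Groups were taken from the sample titles. Probes were named through the platform annotation, in which 34885 probes had 1 gene symbol, 18 had several and 10378 had none. The members and gene lists were chosen with earlier results of these data known. From the lists, the genes named were those with the smallest p in the comparison described (up to 4), carbonic anhydrases with a mean of 7.5 or more, the brightest marker of a list, the 6 genes most like the mean of the 10 and the 3 most like Car2.

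All 45281 probes were fitted in limma 3.58.1 (R 4.3.3) with 1 coefficient per diet over all 12 mice, and two-sided moderated p-values were adjusted by Benjamini-Hochberg. Calls used an adjusted p under 0.05, and no probe passed the 0.001 of the study's methods. The fit was also run on simulated data. No result of that run is given here, and nothing is concluded from it about genes with a wide spread between mice. Fold changes are 2 to the power of the difference on the deposited scale, which understates changes of dim probes. Per the study's methods the mice were caged in groups. Which of the 12 shared a cage is not given in the sources used here, and no scan date was used here. Intervals are 95%. Precision was limited by the number of arrays. Alternatives were a replicate block, a variance trend, array weights, dim probes left out, 1 probe per gene, array centring, cyclic loess, only the diets compared, a plain test per probe, the mean of all probes of a gene, and each mouse left out.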

Additional observations from a re-analysis of the deposited data

Results flagged for a closer look

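The 10 genes in 3 diets make 30 groups of 4 mice, and in 2 of them 1 mouse lay apart from the other 3 by a larger share of the group's range than Dixon's critical value for 4 samples. Chance alone sets about 5% of such groups apart. Slc4a1, the band 3 gene, was 12.22 in HFD-ED replicate 1, the lowest of its diet, with 14.09 to 14.35 in the remaining 3 mice of that diet, a gap of 0.880 of the range. Rhag, the Rh-associated glycoprotein gene, was 7.72 in HFD-CO replicate 3, the highest of its diet, with 7.22 to 7.28 in the remaining 3 mice of that diet, a gap of 0.865 of the range.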

How the results depend on the processing

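No member gene was called in any of the alternatives run, in any of the 3 comparisons. Many of the values of single genes repeat the reported difference, so a count of kept signs is a weak check. A replicate block, a variance trend, 1 probe per gene, dim probes left out and only the 2 diets compared leave that difference as it is. Leaving out a mouse of the diet not compared leaves it too. Between HFD-ED and control all 208 values of single genes kept their sign. Between HFD-ED and HFD-CO 207 of 208 did, the exception being Epb42, which spanned -0.0207 to 0.00243 over the fits without 1 mouse. Between HFD-CO and control 183 of 208 kept it. There, without 1 mouse, Ank1 spanned -0.32 to 0.22, Slc4a1 -0.57 to 0.0732, Rhag -0.12 to 0.0819, Rhd -0.0525 to 0.0129, Kel -0.71 to 0.0419, Ermap -0.32 to 0.10, Tspo2 -0.0191 to 0.20 and Car2 -0.61 to 0.14, and Rhag was 0.00179 with array weights, 0.000774 with cyclic loess and 0.00911 with the mean of its probes. The median of the 10 genes between HFD-ED and control was 0.74 with the mean of all probes of a gene, and 0.80 to 1.55 without 1 mouse. Between HFD-ED and HFD-CO it was 0.72 with the mean of all probes, beside 1.24 with the brightest, and 0.83 to 1.70 without 1 mouse. Epb42 and Rhd dropped out where probes with a mean under 7.5 were left out, since both are dimmer than that.

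Over all probes, the count called between HFD-ED and control (0 in the fit reported, by limma, beside 4620 at an unadjusted p under 0.05) was 8 with a variance trend and robust settings, 3 with 1 probe per gene symbol, and 0 to 87 without 1 mouse, the 87 being without HFD-ED replicate 1. Between HFD-ED and HFD-CO (1 in the fit reported) it was 7 with a variance trend and robust settings, 0 with dim probes left out, 0 with cyclic loess, 0 with only the 2 diets compared, 0 with a plain test per probe, and 0 to 46 without 1 mouse, the 46 being without HFD-ED replicate 1. Between HFD-CO and control it stayed 0, beside 2072 at an unadjusted p under 0.05. The cause of these shifts was not tested.

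Over all probes the replicate numbers showed little pairing of the mice. Same-numbered mice deviated together (correlation above 0.1) in 4 of 12 pairs, and 3 of 12 mice correlated best with their own number. With the replicate number as a block, the count of probes called was 0 between HFD-ED and HFD-CO and 0 between HFD-ED and control. The SE of the HFD-ED minus control difference was then lower in all of the 10 genes but Epb42. For Car1 it was 0.39 with the block and 0.61 without. The smallest adjusted p of the 10 genes in that comparison (limma) was 0.229 with the block and 0.380 without. Signal limits Epb42, Rhd and most other carbonic anhydrases, whose probes lie close to the lower end of the scale.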
